A study of Mus musculus with 9 samples.

Results

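The nuclear pore and the receptors that carry proteins and RNA through it were followed here as 44 genes, the rows of the deposited gene-body table whose symbols begin with Nup and a digit, or with Xpo, Ipo, Kpna, Kpnb or Tnpo and a digit, out of 24391 genes in all. They are 22 nucleoporin rows and 22 transport receptor rows. The rule goes by symbol alone, but it was set with earlier results of these data known. PRO-seq, precision run-on sequencing, maps engaged RNA polymerase by extending nascent RNA in isolated nuclei, so its gene-body counts measure transcription under way and not the amount of messenger RNA. The 9 libraries form 4 groups. Mouse G1E-ER4 cells, which are G1E cells expressing GATA1-ER, were sampled without estradiol in 3 libraries, called 0 h, and under 100 nM estradiol in 2 libraries at 13 h and 2 at 24 h. The G1E parent cells, without that fusion and without estradiol, gave the last group (n = 2). G1E cells are an established erythroblast line that lacks functional GATA1, the master regulator of red cell maturation, and GATA1-ER is GATA1 joined to the hormone-binding part of the estrogen receptor, so estradiol switches it on. All 4 groups lack functional native GATA1, and each line is a single established line. Nothing in the labels ties the replicates to independent cultures. The p-values therefore measure the spread between these libraries alone, which may be technical.

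The nuclear pore is built from rings of nucleoporins. The outer ring is made of Y-shaped complexes, the inner ring holds the channel open, flexible proteins rich in phenylalanine and glycine fill the centre, and filaments and a basket reach into the cytoplasm and the nucleus. Importins bind cargo in the cytoplasm and release it in the nucleus when they meet the GTP-bound form of the small GTPase Ran, exportins bind cargo together with RanGTP and release it in the cytoplasm, and importin alpha proteins are adaptors that link classical import signals to importin beta. Maturing red cell precursors shrink, condense their nuclei and in mammals finally expel them.

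Gene-body totals ran between 37830789 and 139945759 reads per library, and totals over the elements, the deposited regions of polymerase initiation, between 15394427 and 59952454. Values are given as CPM, read counts scaled to a common library size with the trimmed mean of M-values (TMM), and tests are edgeR's quasi-likelihood test with the Benjamini-Hochberg adjustment over all features tested, called at an adjusted p under 0.05. Gene lengths were not used, so levels of different genes are not compared. The summed level of 10 erythroid marker genes was 1154 to 1289 CPM at 0 h, 2671 to 3257 CPM at 13 h, 4986 to 5974 CPM at 24 h and 922 to 1151 CPM in G1E. Over the same groups the sum of 5 mast cell markers was 528 to 690.5 CPM, 199.8 to 297.5 CPM, 46.9 to 105 CPM and 870.1 to 1226 CPM. Nearly all of that sum is Kit, the receptor for kit ligand, which erythroid progenitors express too, and Kit was not called between 0 h and G1E (log2 change -0.84 ± 0.30, adjusted p = 0.0876). Cpa3 had 33.2 to 76.6 CPM at 0 h and 28.9 to 53.2 CPM in G1E, but 0.152 to 0.190 CPM at 13 h and 0.0248 to 0.0536 CPM at 24 h. Against 0 h it was called lower at both times, with log2 changes of -8.29 and -10.4. Ms4a2 had 3.01, 1.55 and 4.997 CPM at 0 h against 0.0966 to 0.190 CPM in G1E (adjusted p = 0.00296), and Fcer1a had 0.0646 to 0.261 CPM at 0 h against 1 read in 1 of the 2 G1E libraries and 0 in the other (adjusted p = 0.0444). Summed levels reached at most 51.5 CPM for 4 megakaryocyte markers, 3.04 CPM for 3 T cell markers, 1.25 CPM for 3 B cell markers and 0.0678 CPM for 2 macrophage markers in any library. Counts on Esr1, the estrogen receptor gene, were 11.4 to 30.3 CPM across G1E-ER4 libraries and 0.531 to 0.811 CPM in G1E. Fcer1a was at 0 in both libraries at 13 h and at 24 h and Ms4a2 at 24 h, both mast cell markers, and Hbb-b1 (erythroid) and Tpsb2 (mast cell) were at 0 in G1E. Whether the shift in these marker levels has a part in the changes below was not tested, and in cell populations fewer cells of a type cannot be told apart from less nascent RNA per cell.

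Upstream sequence is shown for Ipo5, Kpnb1 and Nup205, which fell strongly after estradiol, and for Nup88, which had the largest rise at 24 h, because polymerase counts at their starts are described further on. RefSeq promoters of the GRCm38.p6 build were in the table used for 34 of the 44 genes, and the 250 bases before each listed start are printed 5′ to 3′. The files' own coordinates are on mm9 and the 2 builds are not mixed. Capitals mark CCAAT, or ATTGG on the other strand; the E-box CACGTG and the GATA motif AGATAA, or TTATCT on the other strand, were searched too, and none of the 3 motifs overlaps another in these windows.
Ipo5 (chr14:120910944-120911193, plus strand): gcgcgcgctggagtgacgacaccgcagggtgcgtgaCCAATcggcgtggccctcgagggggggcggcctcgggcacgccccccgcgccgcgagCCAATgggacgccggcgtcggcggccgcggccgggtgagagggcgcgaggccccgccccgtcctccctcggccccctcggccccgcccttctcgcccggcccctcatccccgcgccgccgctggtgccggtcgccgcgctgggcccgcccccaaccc
Kpnb1 (chr11:97187893-97188142, minus strand): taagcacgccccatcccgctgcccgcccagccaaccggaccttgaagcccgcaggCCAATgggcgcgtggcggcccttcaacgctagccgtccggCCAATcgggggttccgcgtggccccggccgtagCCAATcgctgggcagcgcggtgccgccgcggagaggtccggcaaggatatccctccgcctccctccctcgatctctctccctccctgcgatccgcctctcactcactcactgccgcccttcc
Nup205 (chr6:35177366-35177615, plus strand): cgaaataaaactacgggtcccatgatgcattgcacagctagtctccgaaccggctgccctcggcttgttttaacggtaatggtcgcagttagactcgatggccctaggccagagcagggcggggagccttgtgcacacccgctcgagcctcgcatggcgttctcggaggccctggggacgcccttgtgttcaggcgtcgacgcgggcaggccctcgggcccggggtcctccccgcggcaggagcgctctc
Nup88 (chr11:70969974-70970223, minus strand): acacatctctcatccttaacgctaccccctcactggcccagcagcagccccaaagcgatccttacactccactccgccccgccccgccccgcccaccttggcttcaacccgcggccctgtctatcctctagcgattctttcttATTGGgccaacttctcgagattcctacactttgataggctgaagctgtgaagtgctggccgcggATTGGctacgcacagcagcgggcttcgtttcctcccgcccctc
Ipo5 has a second listed start, whose window is not printed and holds 1 GATA motif and no CCAAT. The printed Ipo5 window held 2 CCAAT motifs, the Kpnb1 window 3 and the Nup88 window 2, while no match to any of the 3 motifs is in the Nup205 window. CCAAT lay in 19 of the 34 genes' windows, and in 33.8% of the 32851 windows of the same length in the table. The E-box was in 5 of 34 genes against 6.02% of all windows, and the GATA motif in 3 of 34 against 9.99%. A gene with 2 listed starts had 2 windows and so more chances of a match.

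After 24 h of estradiol more of the transport genes were called lower than higher. The scaling sets each gene against the others of its library, so a change in the total amount of transcription was not measured. Of 42 tested, 22 fell and 6 rose against 0 h, where 30.7% of all 13825 tested genes fell and 29% rose. The steepest falls were in Ipo5, an importin for ribosomal proteins and histones, at -2.89 ± 0.17 (log2 fold change ± SE), and in Kpnb1, importin beta, the main carrier of classical import, at -2.23 ± 0.15. The rises were smaller, led by Nup88 at 0.92 ± 0.14. The median log2 change of the 42 genes was -0.44, beside -0.07 over all tested genes. Scaled by total counts in place of TMM, 29 fell and 4 rose, beside 42.4% and 18.9% of all tested genes, whose median then lay at -0.45. Reads in the 44 genes made up 0.882% to 0.931% of all gene-body reads at 0 h, 0.656% to 0.700% at 13 h, 0.534% to 0.549% at 24 h and 0.876% to 0.952% in G1E. Kpna7, an importin alpha of the egg and early embryo, and Nup62cl were too low to test, with at most 10 and 2 reads in a library. Nup62-il4i1 is a read-through row that lies over Nup62, so those rows may share reads, and both are among the 22 that fell.

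**Figure D1:**
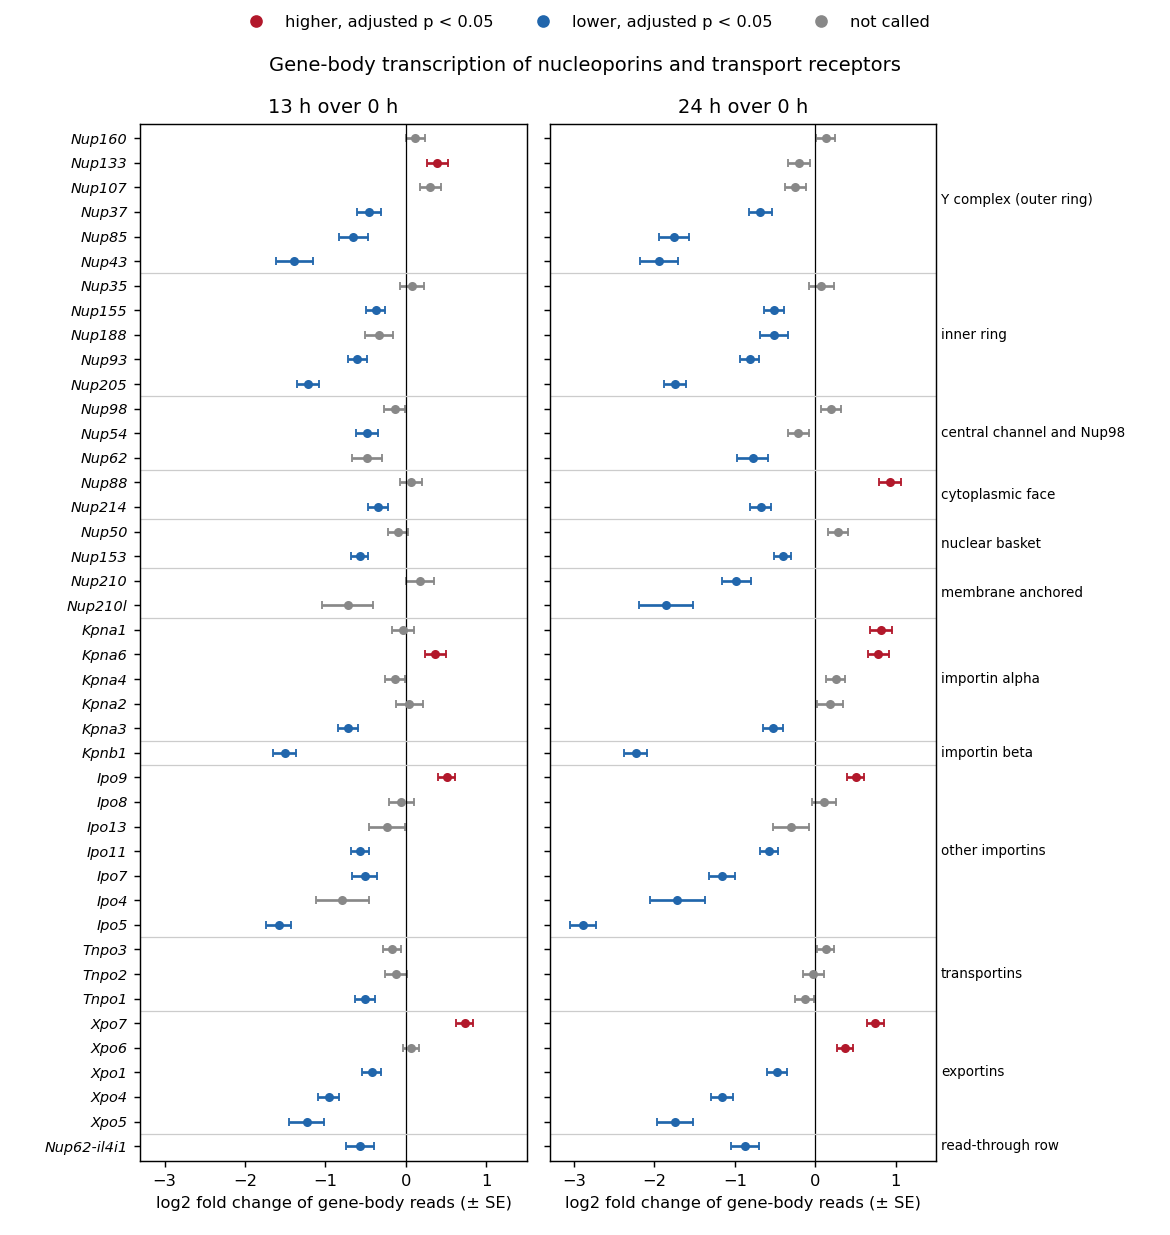
Log2 fold change of gene-body reads (x axis, bars are standard errors) for the 42 tested genes, listed by role, at 13 h over 0 h (left, n = 2 against 3) and 24 h over 0 h (right, n = 2 against 3). Blue points passed the test as lower, red as higher and grey did not pass; at 24 h 22 points are blue, led by Ipo5 at -2.89, and 6 are red, led by Nup88 at 0.92.

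Of the 6 outer ring genes under the name rule 3 fell at 24 h and none rose, beside 30.7% and 29% of all tested genes. Pore proteins with other symbols are counted further on. Nup43, a beta-propeller of the Y complex, had 21.3, 24.4 and 32.2 CPM at 0 h, 8.97 and 10.9 CPM at 13 h, 7.45 and 6.09 CPM at 24 h, and 24.2 and 29.8 CPM in G1E. The 24 h libraries were the lowest and did not overlap those at 0 h (-1.94 ± 0.24, adjusted p = 6.76e-05). Nup85, a scaffold of the short arm of the Y, had 99.8, 88.8 and 107 CPM at 0 h, 65.7 and 59.6 CPM at 13 h, 34.01 and 24.3 CPM at 24 h, and 96.7 and 125 CPM in G1E. The groups of the time course stepped down without overlap, so that it was lower at 24 h than at 0 h (-1.76 ± 0.19, adjusted p = 2.91e-05) and than at 13 h (-1.10 ± 0.20, adjusted p = 0.00481). Nup37, which binds Nup160 in the Y complex, fell by 0.68 ± 0.15. Nup107 (-0.25 ± 0.14) and Nup160 (0.13 ± 0.12), the stem and arm scaffolds, did not pass the test at 24 h against 0 h. Nup133 is taken up separately because the element at its start had the largest change of these genes' start elements at 24 h. Elements at the starts of Nup43 and Nup160 were also called higher at 24 h than at 0 h, unlike their bodies. Their changes over the alternative runs were 0.82 to 1.30 and 0.81 to 1.02. The Nup43 start call was lost without 24 h replicate 2 (0.82, edgeR adjusted p = 0.0528). Both elements name other genes too, whose reads were not separated.

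The inner ring had 4 of 5 genes lower at 24 h and none higher, beside 30.7% and 29% of all tested genes. Nup205, a large scaffold that spans this ring, had 213, 246 and 261 CPM at 0 h, 98.1 and 109 CPM at 13 h, 77.2 and 66.5 CPM at 24 h, and 198 and 210.1 CPM in G1E. All 4 libraries in estradiol lay below all 3 at 0 h, with a change of -1.22 ± 0.14, adjusted p = 0.000108 at 13 h and -1.74 ± 0.14, adjusted p = 4.57e-06 at 24 h. Its relative Nup188 changed by -0.52 ± 0.17, adjusted p = 0.0269, a call that was lost without 24 h replicate 2 (-0.35, 0.189), 0 h replicate 2 (-0.48, 0.0703) or 0 h replicate 3 (-0.44, 0.0856). Nup93, which anchors the central channel to the ring, fell by 0.81 ± 0.12 and Nup155, its link to the membrane side, by 0.51 ± 0.12. Nup35 did not pass at 0.07 ± 0.15.

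The proteins of the channel and of both faces of the pore were mixed. Nup62, the core of the central channel, fell by 0.78 ± 0.19 at 24 h, and its partner Nup54 changed by -0.21 ± 0.13, adjusted p = 0.198. Nup98, a mobile nucleoporin that also occurs away from the pore, had 282, 335 and 339 CPM at 0 h, 277 and 301 CPM at 13 h, 369 and 359 CPM at 24 h, and 343 and 285 CPM in G1E. The 24 h libraries were the highest, but it was called in none of the 4 comparisons and its change at 24 h was 0.19 ± 0.13, adjusted p = 0.217. On the cytoplasmic face the partners Nup88 and Nup214 moved apart at 24 h. Nup88 had 85.6, 95.6 and 96.4 CPM at 0 h, 98.1 and 95.2 CPM at 13 h, 152 and 199 CPM at 24 h, and 84.7 and 79.5 CPM in G1E. Both 24 h libraries stood above every other library, a rise of 0.92 ± 0.14, adjusted p = 0.000236 over 0 h and of 0.86 ± 0.15, adjusted p = 0.00476 over 13 h, while the 13 h and 0 h groups overlapped. Nup214, which holds Nup88 in place, fell by 0.68 ± 0.13. In the basket Nup153 fell by 0.41 ± 0.11, a call lost without 24 h replicate 2 (-0.35, adjusted p = 0.0544), and Nup50 did not pass at 0.28 ± 0.12.

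Nup210, a membrane-spanning nucleoporin known for its part in muscle and T cell differentiation, had 270.2, 322 and 324 CPM at 0 h, 304 and 385 CPM at 13 h, 183 and 125 CPM at 24 h, and 292 and 309.6 CPM in G1E. The 13 h libraries overlapped those at 0 h, and only the 24 h libraries were low. Its change was -0.98 ± 0.18, adjusted p = 0.000919 at 24 h against 0 h and -1.16 ± 0.19, adjusted p = 0.0038 at 24 h against 13 h. Its relative Nup210l, known from testis, was low throughout, with 9.65, 18.2 and 11.8 CPM at 0 h, 6.32 and 9.62 CPM at 13 h, 3.3 and 3.96 CPM at 24 h, and 8.08 and 6.23 CPM in G1E. The 24 h libraries were below all at 0 h (-1.86 ± 0.34, adjusted p = 0.000853).

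The import receptors held the deepest falls. Among the adaptors 2 of 5 tested importin alpha genes rose and 1 fell at 24 h, beside 29% and 30.7% of all tested genes. Ipo5 had 352, 343 and 382 CPM at 0 h, 114 and 126 CPM at 13 h, 55.2 and 41.9 CPM at 24 h, and 440.1 and 541 CPM in G1E. The groups of the time course stepped down without overlap, with -1.58 ± 0.15, adjusted p = 5.43e-05 at 13 h and -2.89 ± 0.17, adjusted p = 8.22e-07 at 24 h, and -1.30 ± 0.16, adjusted p = 0.00154 between the later times. Kpnb1 had 400.1, 427 and 412 CPM at 0 h, 126 and 165 CPM at 13 h, 94.8 and 80.7 CPM at 24 h, and 367 and 375 CPM in G1E. It followed the same order of groups, with -1.50 ± 0.14, adjusted p = 4.51e-05 at 13 h and -2.23 ± 0.15, adjusted p = 1.77e-06 at 24 h. Of the other importins, Ipo4 changed by -1.71 ± 0.34, Ipo7 by -1.16 ± 0.16 and Ipo11 by -0.58 ± 0.11 at 24 h, all called.

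Ipo9, an importin for histones and actin, had 156, 164 and 164 CPM at 0 h, 239 and 219.8 CPM at 13 h, 224 and 234 CPM at 24 h, and 156 and 139.7 CPM in G1E. All 4 estradiol libraries were above the other 5, at 0.51 ± 0.11, adjusted p = 0.0041 for 13 h and 0.50 ± 0.11, adjusted p = 0.00232 for 24 h; scaled by total counts the 24 h change was 0.12 and not called (adjusted p = 0.350). Kpna1, an importin alpha adaptor, had 128, 148 and 143 CPM at 0 h, 118 and 155 CPM at 13 h, 243 and 249 CPM at 24 h, and 135 and 132 CPM in G1E. Only the 24 h group stood apart, with 0.82 ± 0.14, adjusted p = 0.000478 against 0 h and 0.85 ± 0.15, adjusted p = 0.00476 against 13 h. Kpna6, a close relative, had 70.2, 78.6 and 82.9 CPM at 0 h, 92.5 and 106 CPM at 13 h, 139 and 127 CPM at 24 h, and 94.3 and 104 CPM in G1E. Its groups in the time course did not overlap, and the change at 24 h was 0.78 ± 0.13, adjusted p = 0.000475. Kpna3 changed the other way (-0.53 ± 0.12, adjusted p = 0.00333). Kpna2, an adaptor known for its abundance in dividing cells, had 78.5, 119 and 95.3 CPM at 0 h, 95.8 and 105 CPM at 13 h, 108 and 113 CPM at 24 h, and 114 and 110.5 CPM in G1E. Its groups overlapped at both times against 0 h and it was called in none of the 4 comparisons, with 0.18 ± 0.17, adjusted p = 0.365 at 24 h. Kpna4, Ipo8 and Ipo13 were called in none of the 4 comparisons either. Of the transportins, which import RNA-binding proteins, none of the 3 was called at 24 h, and their changes lay between -0.13 (Tnpo1) and 0.13 (Tnpo3).

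All 5 exportins named Xpo were called at 24 h, 3 lower and 2 higher, beside 30.7% and 29% of all tested genes. Cse1l and Xpot, receptors outside the name rule, were not called at 24 h. Xpo5, the exporter of precursor microRNAs, had 137, 204 and 204 CPM at 0 h, 62.7 and 91.7 CPM at 13 h, 56.8 and 51.8 CPM at 24 h, and 164 and 145 CPM in G1E. The estradiol libraries lay below all of those at 0 h and in G1E (-1.24 ± 0.21, adjusted p = 0.00141 at 13 h, -1.74 ± 0.22, adjusted p = 7.89e-05 at 24 h). Xpo4 fell by 1.15 ± 0.14 at 24 h. Xpo1, the main exporter of proteins with leucine-rich signals, had 299, 347 and 325 CPM at 0 h, 252 and 231 CPM at 13 h, 246 and 221 CPM at 24 h, and 372 and 327 CPM in G1E. The estradiol libraries were lower than those at 0 h without overlap, and the change at 24 h was -0.47 ± 0.12, adjusted p = 0.00661. Xpo7, a broad-specificity receptor that is abundant in red cell precursors and is known there for its part in nuclear maturation, had 185, 186 and 183 CPM at 0 h, 284 and 329 CPM at 13 h, 324 and 296 CPM at 24 h, and 187 and 185 CPM in G1E. It was high in all 4 estradiol libraries and low in the other 5, with 0.73 ± 0.11, adjusted p = 0.000556 at 13 h and 0.75 ± 0.11, adjusted p = 0.000194 at 24 h, and the 13 h and 24 h groups overlapped. Xpo6, the exporter of actin with profilin, changed by 0.37 ± 0.10, adjusted p = 0.0108, which turned to -0.023 (adjusted p = 0.853) when libraries were scaled by total counts.

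**Figure D2:**
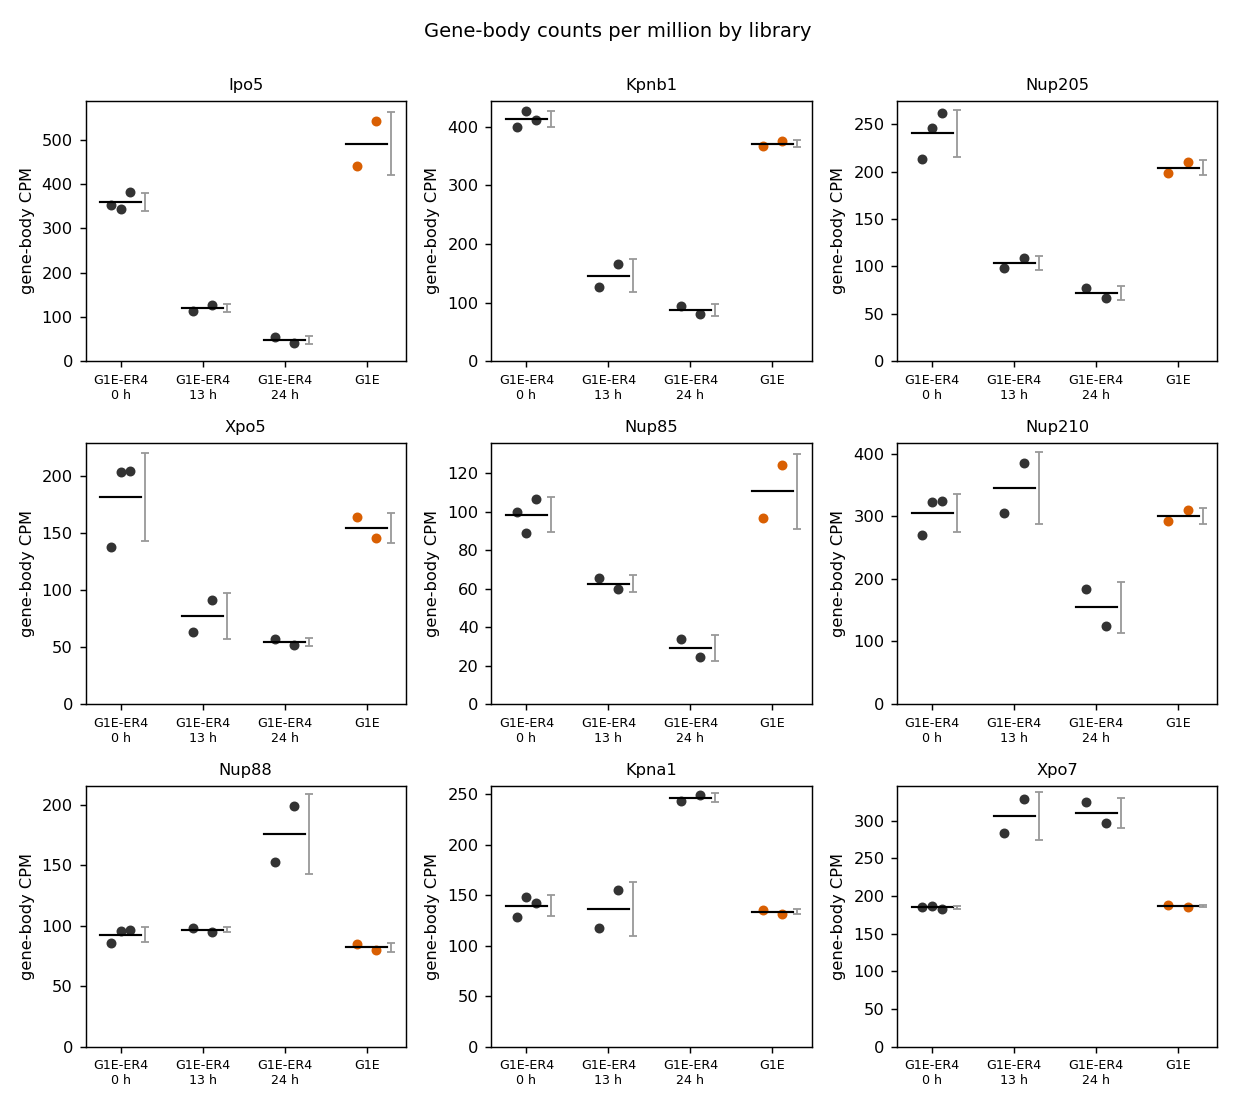
Gene-body CPM (y axis, linear, from 0) in each of the 9 libraries for 9 genes; points are libraries, the black line is the group mean and the grey bar beside it is 1 SD (n = 3, 2, 2 and 2). Ipo5, Kpnb1, Nup205, Xpo5 and Nup85 are lowest at 24 h, Nup210 is low at 24 h alone, Nup88 and Kpna1 are high at 24 h alone, and Xpo7 is already high at 13 h.

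At 13 h, 19 of the 42 tested genes were lower and 4 higher than at 0 h, beside 20.9% of all tested genes lower and 20.1% higher, and the median change was -0.36, beside -0.02 over all. The 13 h and 24 h comparisons share the 0 h libraries. Tnpo1, a transportin, was lower at 13 h (-0.51 ± 0.12, adjusted p = 0.00803) and at 24 h had -0.13 ± 0.12, not called. Of the 23 calls, 13 were kept when any single library was left out. The other 10 (Ipo7, Kpna6, Nup133, Nup155, Nup214, Nup37, Nup54, Nup62-il4i1, Nup85 and Xpo1) were each lost without at least 1 of the 0 h or 13 h libraries, at adjusted p between 0.0525 and 0.244; Kpna6 and Nup214 were also lost without either G1E library, and Nup214 without either 24 h library. The number lower was 12 without 0 h replicate 3, 11 without 13 h replicate 1, and between 13 and 21 without each of the others. The number higher was 2 without any 1 of the 3 libraries at 0 h.

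From 13 h to 24 h, 9 of 42 genes fell and 2 rose, beside 12.5% and 11.7% of all tested genes. The rises were Nup88 and Kpna1 and the deepest falls Ipo5, Nup210, Nup210l and Nup85, whose values stand above. Without single libraries 6 of the 11 calls were lost (Ipo7, Kpnb1, Nup107, Nup133, Nup205 and Nup210l, at adjusted p between 0.0509 and 0.207), and the number lower was 4 without 13 h replicate 2 and 3 without 24 h replicate 2. With runs of consecutive numbers in the sample titles as blocks, edgeR called 0 of the 42 between these times. DESeq2 without a block called 9 lower and 8 higher. No run holds both 13 h and 24 h libraries, so the blocked comparison goes only through 0 h libraries. Without a block, a difference between these times cannot be told apart from a difference between runs. Scaled by total counts, 18 fell and 2 rose, beside 22.3% and 4.64% of all tested genes.

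Between uninduced G1E-ER4 and G1E few of the transport genes were called. Of 42 genes 1 was lower at 0 h and none higher by edgeR, beside 9.58% and 7.88% of all tested genes; 4 had an unadjusted p under 0.05, and DESeq2 called 3 lower and 1 higher. The 1 gene called was Nup133, a Y complex protein at the end of the stem, with 179, 171 and 192 CPM at 0 h, 237 and 237 CPM at 13 h, 155 and 159 CPM at 24 h, and 237 and 313 CPM in G1E. Both G1E libraries were above the 3 at 0 h (-0.61 ± 0.13, adjusted p = 0.00983), a call lost without G1E replicate 2 (-0.39, adjusted p = 0.0877). Its level at 13 h was above that at 0 h (0.39 ± 0.13, adjusted p = 0.0352) and at 24 h below that at 13 h (-0.59 ± 0.14, adjusted p = 0.0165), the first call being lost without any 1 of the 0 h or 13 h libraries and the second without any 1 of the 13 h or 24 h libraries, at adjusted p between 0.0529 and 0.108. The number of genes lower was 2 without 24 h replicate 1 or 24 h replicate 2.

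The starts of the genes could be followed through 58 start elements, initiation regions that the deposited table places at the start of 39 of the 44 genes; 45 of them name 1 gene and 13 name several. An element is counted on both strands together or on each strand, sense being the strand of the gene. At 24 h 13 of the 58 were lower and 9 higher than at 0 h, beside 29.5% and 22.7% of the 35158 elements tested, and at 13 h 11 were lower and 4 higher, beside 18.6% and 15.2%. Between 24 h and 13 h 3 were lower and none higher (7.82% and 5.28% of all elements; 17 had an unadjusted p under 0.05, and DESeq2 called 3 higher). Between 0 h and G1E 1 was lower and none higher (12.1% and 7.18%; 7 had an unadjusted p under 0.05, and DESeq2 called none higher). Leaving out 24 h replicate 2 left 6 lower at 24 h, and leaving out 13 h replicate 1 left 7 lower at 13 h. Between 24 h and 13 h none were lower without 13 h replicate 2 or 24 h replicate 2 and 5 without 0 h replicate 2, and 1 was higher without 0 h replicate 1. Between 0 h and G1E none were lower without 0 h replicate 2 or either G1E library, and 2 were higher without 0 h replicate 1 and 1 without 0 h replicate 3. Scaled by total counts, 13 were lower and 5 higher at 24 h; with the scaling factors of the gene bodies, 3 were lower and 5 higher at 13 h.

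The start element of Nup205 (mm9 chr6:35126900-35129751, sense) had 42.2, 60.3 and 36.3 CPM at 0 h, 18.8 and 23.4 CPM at 13 h, 11.9 and 11.6 CPM at 24 h, and 28.9 and 41.5 CPM in G1E. It fell without overlap at both times, with -1.97 ± 0.27, adjusted p = 4.94e-05 at 24 h. The start element of Ipo5 (mm9 chr14:121309250-121312551, both strands) had 120.0, 128 and 117 CPM at 0 h, 65.00 and 62.02 CPM at 13 h, 68.01 and 57.3 CPM at 24 h, and 128 and 167 CPM in G1E. It was lower in every estradiol library, and 13 h and 24 h overlapped (-0.95 ± 0.19, adjusted p = 0.000834 at 24 h). The start element of Kpnb1 (mm9 chr11:97047250-97051801, both strands) had 217, 309 and 330.1 CPM at 0 h, 120.1 and 174 CPM at 13 h, 171 and 162 CPM at 24 h, and 244 and 253 CPM in G1E. The 24 h libraries lay below those at 0 h, with a change of -0.78 ± 0.23, adjusted p = 0.0108, a call lost without 24 h replicate 1 (-0.82, 0.0522) or 24 h replicate 2 (-0.74, 0.0914). The element at the start of Nup88 (mm9 chr11:70781600-70785051, both strands), which it shares with Rpain, had 79.9, 66.4 and 68.5 CPM at 0 h, 126 and 129 CPM at 13 h, 164 and 191 CPM at 24 h, and 62.8 and 71.01 CPM in G1E. It was higher at both times without overlap (0.84 ± 0.17, adjusted p = 0.00236 at 13 h and 1.31 ± 0.17, adjusted p = 3.67e-05 at 24 h), whereas the Nup88 gene body was not called at 13 h; reads of the 2 genes on this element were not separated.

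The start element of Kpna1 (mm9 chr16:35981000-35984901, both strands) had 508, 576 and 310.3 CPM at 0 h, 390.2 and 373 CPM at 13 h, 255 and 203 CPM at 24 h, and 534 and 731 CPM in G1E. It was lower at 24 h than at 0 h (-1.02 ± 0.27, adjusted p = 0.0054), while the gene body was higher; the start call was lost without 24 h replicate 2 (-0.87, adjusted p = 0.0923) and with the number in the titles as a block. Tnpo1 has elements at 2 starts, and at 24 h they went apart. That at mm9 chr13:99659000-99661751 changed by -1.13 ± 0.19, adjusted p = 0.000221 and that at chr13:99694850-99697801 by 0.57 ± 0.17, adjusted p = 0.0125, the second call being lost without 0 h replicate 3 (0.48, 0.0685) or 24 h replicate 2 (0.51, 0.114), or when scaled by total counts. Xpo7 had no called change at its start (0.24 ± 0.21, adjusted p = 0.347 at 24 h), and neither had Xpo5 (shared with Polh, -0.20 ± 0.18, adjusted p = 0.37), Nup98, shared with Pgap2 (sense, 0.48 ± 0.20, adjusted p = 0.054), or Kpna2 (sense, -0.62 ± 0.37, adjusted p = 0.179).

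Body and start were then set against each other in 1 model over both kinds of count, with the body-over-start ratio tested for 5773 genes that have 1 start element of their own, 27 of these transport genes among them. This model was chosen after the values were seen. Start counts were on both strands together for Ipo5, Ipo7, Kpnb1 and Kpna1, so antisense reads enter their ratios. For Nup205 and Nup133 they were on the sense strand alone. At 24 h against 0 h the ratio fell in 6 of the 27 and rose in 4, beside 22.6% and 8.63% of all genes so tested. It fell in Ipo5 by 1.94 ± 0.16, in Kpnb1 by 1.48 ± 0.19, in Xpo4 by 1.32 ± 0.18 and in Nup85 by 1.26 ± 0.27 on the log2 scale, each called; start counts of Ipo5 and Kpnb1 fell less than their bodies, and those of Xpo4 and Nup85 were not called. It rose in Kpna1 by 1.81 ± 0.28 (edgeR adjusted p = 0.000821). In Nup205 and Ipo7, where body and start both fell, the ratio was not called (0.20 ± 0.24, adjusted p = 0.544, and 0.02 ± 0.20, adjusted p = 0.955). The ratio of Nup214 fell by 1.19 ± 0.26, a call lost without 24 h replicate 1 (-1.08, adjusted p = 0.0586). The other rises, in Kpna6 (0.61), Xpo7 (0.51) and Nup50 (0.50), were lost without single libraries, so that 1 gene was left as higher without 24 h replicate 1 and 1 without 24 h replicate 2, and 2 without 0 h replicate 3; without 0 h replicate 1 the number lower was 10.

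**Figure D3:**
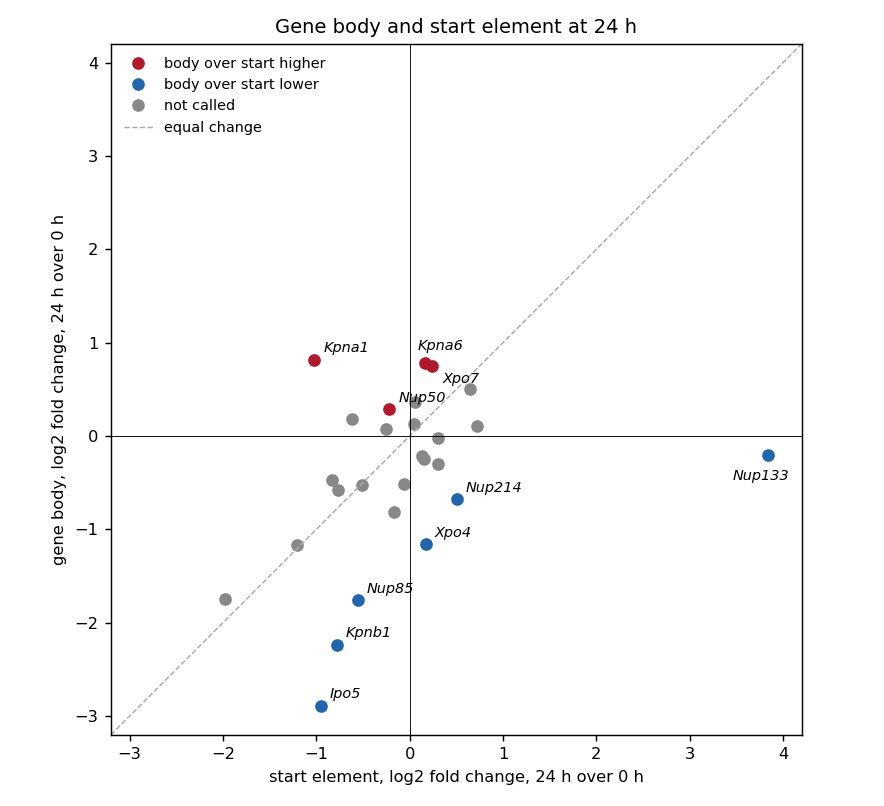
Log2 fold change at 24 h over 0 h of the start element (x axis) and of the gene body (y axis) for the 27 transport genes with 1 start element of their own; the dashed line marks equal change. Ipo5, Kpnb1, Xpo4 and Nup85 lie below the line with a lower body-over-start ratio, Kpna1 lies above it, Nup205 lies near it at the low end, and Nup133 stands far to the right at a start change of 3.84.

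The largest change at 24 h among the 58 start elements was at Nup133 (mm9 chr8:126472300-126475051). Its sense element had 47.8, 62.2 and 54.9 CPM at 0 h, 518 and 484 CPM at 13 h, 738 and 840.4 CPM at 24 h, and 55.2 and 58.7 CPM in G1E. The estradiol libraries were far above the others, with 3.19 ± 0.19, adjusted p = 1.99e-07 at 13 h and 3.84 ± 0.20, adjusted p = 1.84e-08 at 24 h, while the gene body did not follow at 24 h (-0.20 ± 0.13, adjusted p = 0.212) and the ratio fell by 4.05 ± 0.19 (adjusted p = 5.22e-07). On the antisense strand the same element had 13.3, 9.94 and 15.4 CPM at 0 h, 15.5 and 14.7 CPM at 13 h, 23.2 and 29.8 CPM at 24 h, and 23.3 and 24.4 CPM in G1E. That strand was higher at 24 h (1.04 ± 0.24, adjusted p = 0.00273) and not at 13 h (0.23 ± 0.25, adjusted p = 0.5). Upstream on the same strand lies Abcb10, the mitochondrial transporter needed for haem synthesis, whose listed start is at 126507022 and that of Nup133 at 126473165. The Abcb10 gene body had 50.1, 63.7 and 52.8 CPM at 0 h, 693 and 768 CPM at 13 h, 1345 and 1134 CPM at 24 h, and 71.02 and 53.8 CPM in G1E. It rose in the same libraries, by 3.72 ± 0.16, adjusted p = 7.58e-07 at 13 h and 4.48 ± 0.17, adjusted p = 1.66e-07 at 24 h. Whether polymerase running on from Abcb10 has a part in the sense counts at Nup133 was not tested.

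**Figure D4:**
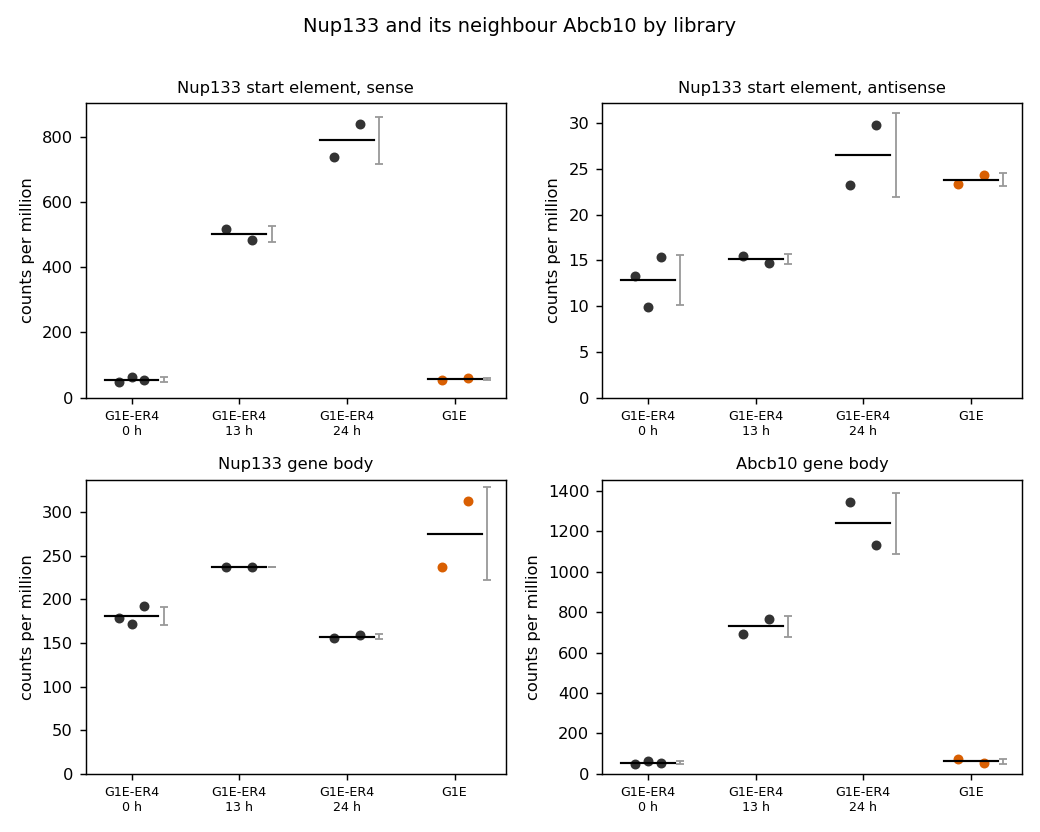
CPM (y axes, linear, from 0) in each library for the sense and antisense start elements of Nup133, the Nup133 gene body and the Abcb10 gene body; points are libraries, black lines group means and grey bars 1 SD (n = 3, 2, 2 and 2). The sense element and Abcb10 are high in all 4 estradiol libraries, and the Nup133 gene body is not high at 24 h.

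Away from the starts, 97 further elements lie in these genes or beside them, of which 75 were tested. At 24 h against 0 h 18 of the 75 were lower and 13 higher, beside 29.5% lower and 22.7% higher over all elements tested. Without 24 h replicate 2 the counts were 12 lower and 7 higher, and with the number in the titles as a block 8 were higher. The 4 elements given per library here kept their call under every alternative run. Plus-strand elements in or beside Nup210 (mm9 starts 90942200 and 90955600) and Kpna3 (62026650) also kept theirs, as higher. Their changes over the alternative runs were 5.38 to 7.79, 7.22 to 7.91 and 5.21 to 6.46. Within Kpnb1 the sense element at mm9 chr11:97042250-97043051 had 27.7, 36.2 and 36.7 CPM at 0 h, 8.46 and 11.05 CPM at 13 h, 6.65 and 6.98 CPM at 24 h, and 28.1 and 33.2 CPM in G1E, which put every estradiol library below the others (-2.30 ± 0.26, adjusted p = 8.31e-06). Between Xpo1 and 1700061J23Rik the element at mm9 chr11:23067750-23072401 had 9.36, 8.11 and 11.7 CPM at 0 h, 1.04 and 0.695 CPM at 13 h, 0.0802 and 0.217 CPM at 24 h, and 21.8 and 15.8 CPM in G1E. It was lowest at 24 h, at intermediate levels at 0 h and highest in G1E, with -6.03 ± 0.48, adjusted p = 5.89e-07 at 24 h against 0 h. An antisense element within Nup93 at mm9 chr8:96830400-96832451 had 2.19, 1.4 and 1.23 CPM at 0 h, 0.549 and 0.479 CPM at 13 h, 0.107 and 0.062 CPM at 24 h, and 0 and 0 CPM in G1E. It was listed at 0 in both G1E libraries and fell with estradiol (-4.18 ± 0.69, adjusted p = 0.000279 at 24 h). Near Kpna2, whose body and start were not called, the minus-strand element at mm9 chr11:106872550-106875651 had 26.9, 21.8 and 20.1 CPM at 0 h, 41.9 and 28.4 CPM at 13 h, 58.8 and 55.05 CPM at 24 h, and 24.7 and 17.9 CPM in G1E. The 24 h libraries were above all others (1.31 ± 0.23, adjusted p = 0.000365). The nearest gene is not shown to be what an element acts on.

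Other genes of nuclear transport, in lists drawn up by name, moved in both directions at 24 h, where 30.7% of all tested genes fell and 29% rose. Of 12 further pore proteins 5 fell and 3 rose. Without 24 h replicate 2 the counts were 4 and 1, since the calls of Tpr (log2 change 0.48, adjusted p = 0.0535), Ranbp2 (0.28, adjusted p = 0.199) and Aaas (-0.53, adjusted p = 0.0992) were lost, and scaled by total counts they were 8 and 1. Ndc1, a membrane anchor of the pore, changed by -2.06 ± 0.21, adjusted p = 1.95e-05, Rae1, a messenger RNA export factor, by -1.14 ± 0.13, adjusted p = 3.95e-05, and Ahctf1, which seeds pore assembly on chromatin, by 0.76 ± 0.12, adjusted p = 0.000349. Of 9 genes listed under the Ran cycle 5 fell and 3 rose, the same counts as under every alternative run. The falls were in Rangrf, Rcc1, Ranbp1, Ran and Rangap1, and the rises in Nutf2, Ranbp9 and Ranbp10. Ranbp9 and Ranbp10 are in the list by name, and their part in the cycle was not tested. Rangrf had the deepest fall, at -3.33, and kept its call under every alternative run. Rcc1, the exchange factor that loads Ran with GTP, changed by -2.65 ± 0.23, adjusted p = 7.03e-06, Ranbp1, a cofactor of Ran's GTPase cycle, by -2.50 ± 0.21, adjusted p = 6.74e-06, and Ran itself, named outside the rule and with its values known, by -1.27 ± 0.19, adjusted p = 0.000211. Nutf2, which brings Ran back into the nucleus, changed the other way by 1.19 ± 0.17, adjusted p = 0.000161. Ranbp10, a Ran-binding protein, had 112, 169 and 146 CPM at 0 h, 833 and 898 CPM at 13 h, 2151 and 1986 CPM at 24 h, and 165 and 106 CPM in G1E. It rose in every estradiol library, by 3.86 ± 0.21, adjusted p = 7.07e-07 at 24 h. The remaining receptors and adaptors had 3 lower and 1 higher of 7. Without 24 h replicate 2 or without 0 h replicate 3 they had 1 lower and 0 higher, and 0 were higher without 24 h replicate 1 or 0 h replicate 2 too. Scaled by total counts 5 were lower and 0 higher, with the replicate block 2 and 0, and with the title number as a block 1 and 1. Snupn, the snurportin that imports spliceosomal RNPs, kept its call under each of these (-0.84 ± 0.18, adjusted p = 0.00249).

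Of 19 messenger RNA export genes 9 fell and 5 rose at 24 h, beside 30.7% and 29% of all tested genes. The counts were 6 and 4 without 24 h replicate 2 and 14 and 3 when scaled by total counts, and 3 of the 9 falls, in Nxt1, Ddx39b and Thoc7, were lost without any 1 of several libraries. The RNA helicase Ddx39 changed by -1.86 ± 0.17, adjusted p = 8.85e-06 and the pore-associated helicase Ddx19a by -0.73 ± 0.12, adjusted p = 0.000404, while Ddx19b changed by 1.05 ± 0.18, adjusted p = 0.000699 and Poldip3, an RNA-binding partner of the export machinery, by 1.01 ± 0.14, adjusted p = 0.000137. Ddx19a and Ddx19b are closely similar genes, between which counting could split reads. Of 12 lamina and envelope genes 5 fell and 5 rose, and 3 rose when scaled by total counts. Syne2 had the deepest fall, at -3.42, and kept its call under every alternative run. Banf1, which tethers DNA to the nuclear envelope, changed by -1.72 ± 0.26, adjusted p = 0.000305 and Lmna, the gene of lamins A and C, by 2.64 ± 0.12, adjusted p = 3.82e-07. Sun2, an inner-membrane protein that joins nucleus and cytoskeleton, changed by 3.16 ± 0.21, adjusted p = 1.78e-06 and Syne1, a nesprin partner on the outer membrane, by -1.91 ± 0.20, adjusted p = 2.18e-05. The medians of the 5 lists at 24 h were -0.18, -0.79, -0.44, -0.36 and 0.43, beside -0.07 over all tested genes. At 13 h the 5 lists, in the same order, had 2, 1, 1, 4 and 3 genes higher and 4, 4, 2, 3 and 3 lower, where 20.1% of all tested genes were higher and 20.9% lower.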

How the data were processed

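Precision run-on libraries of mouse G1E-ER4 and G1E cells were taken as deposited. Per the file headers, the deposited tables hold raw read counts per gene body and per dREG peak, and the submitters' processing notes name BWA and mm9. The aligner version, the counting tool, the annotation and the use of strand in gene-body counting were not given in the sources used here, so overlapping and antisense genes could share reads. Counts were analysed with R 4.3.3 and edgeR 4.0.16 (filterByExpr, TMM, robust quasi-likelihood fit over the 4 groups, 5 residual degrees of freedom, Benjamini-Hochberg at 0.05), with DESeq2 1.42.0 as an alternative. SE is the size of the log2 change over the square root of F. The fits were tested on simulated data, where fold sizes were recovered and few unchanged rows were called, but most changed rows were missed when few features changed, so genes that were not called may still differ. Libraries of a group differed by more than sampling noise. The members and lists were chosen with earlier results of these data known. Genes given per library were, in each comparison, the 5 called with the largest rise and the 5 with the largest fall, plus Xpo1, Xpo7, Kpna2, Kpnb1, Nup98 and Nup210; in each list up to 3 called genes a direction were eligible; elements away from starts were picked after their values were seen. Alternatives were other scalings, no filter, DESeq2, blocks, the compared groups alone and each library left out.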

Additional observations from a re-analysis of the deposited data

How the results depend on the processing

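Of 63 gene calls over the 4 comparisons, 37 were kept under every alternative run, and of 41 start element calls 14 were. The only call that changed sign was Xpo6 at 24 h, at -0.023 with total counts. Counts below are of transport genes, then of start elements, and those not given stayed within 1.5 times. With DESeq2, 8 genes were higher at 24 h than at 13 h, 1 was higher and 3 lower at 0 h than in G1E, 7 elements were higher at 13 h, and 3 were higher at 24 h than at 13 h. With RLE size factors 4 genes were higher at 24 h than at 13 h. With the compared groups alone 4 genes were lower at 24 h than at 13 h, 2 lower at 0 h than in G1E, and 1 element higher at 24 h than at 13 h. With gene-body scaling 3 elements were lower at 13 h, 0 at 24 h against 13 h and 0 at 0 h against G1E. With no filter 2 genes were higher at 13 h, 1 at 0 h against G1E, and 1 element at 24 h against 13 h. With total counts 2 genes were higher at 13 h and 18 lower at 24 h against 13 h, 7 elements were lower at 13 h and 5 higher at 24 h, and the body-over-start ratio was higher in 1 and lower in 13 genes. The cause of these changes was not tested.

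Both same-numbered pairs of 0 h and 13 h libraries deviated together (r = 0.581 and 0.558). These values are not independent, since deviations from a group mean cancel and those of the 13 h libraries are exact opposites. The titles of each pair open with consecutive numbers, a hint from the data that these libraries were handled in pairs, which no label states. Over the other same-numbered pairs r ran from -0.258 to 0.136, so the replicate number does not pair the libraries across all groups. With the replicate block 2 genes were higher and 11 lower at 13 h, 5 lower at 24 h against 13 h, 3 elements higher and 5 lower at 24 h against 13 h, and 2 higher at 0 h against G1E. With the number in the titles as a block, 4 genes were higher and 15 lower at 13 h. At 24 h against 13 h 0 genes were higher, 0 genes lower and 0 elements lower. At 0 h against G1E 0 genes were lower, 0 elements lower and 2 elements higher. G1E replicate 2 is alone in its run of title numbers, so it does not inform the blocked comparison of 0 h with G1E.

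Without single libraries, genes lower ranged from 11 to 21 at 13 h, 21 to 22 at 24 h, 3 to 10 at 24 h against 13 h and 0 to 2 at 0 h against G1E, and genes higher from 2 to 4, 6 to 7, 2 to 3 and 0 to 0. Elements lower ranged from 7 to 11, 6 to 15, 0 to 5 and 0 to 1, and elements higher from 3 to 5, 6 to 10, 0 to 1 and 0 to 2, in the same order. The ratio was higher in 1 to 5 and lower in 5 to 10 genes. Kpna7 and Nup62cl were limited by depth, being too low to test.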
